A study of Mus musculus with 21 samples.

Results

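The 10 genes described here encode TNF, a cytokine that microglia release during inflammation, its receptors, and proteins that carry or restrain the signal inside the cell. They were taken by Ensembl identifier from a table of 55487 genes, and all 10 passed the filter on low counts, as did 14741 genes in all. The RNA sequenced came from microglia, the resident macrophages of the brain, which were sorted from the striatum. The mice were males aged 8 to 10 weeks. The sort kept living cells positive for CD11b and P2RY12 and low in CD45. Some were born after maternal immune activation (MIA), in which the dam is challenged during pregnancy, and were set against control offspring (CON). The agent given to the dams is not given in the sources used here. As adults they were injected with lipopolysaccharide (LPS), which is part of the outer membrane of many bacteria, at 4500 endotoxin units per gram of body weight into the peritoneum, or with saline, 18 hours before collection. The 4 groups were MIA LPS (4 libraries), MIA saline (5), CON LPS (5) and CON saline (6). The labels carry an ID number whose meaning they do not state, and no number is shared by MIA and CON offspring. The 8 batch 1 MIA libraries hold 3 such numbers and the 11 CON libraries 6. If a number marks a litter or dam, the MIA against CON tests rest on fewer independent units than libraries, and each p-value reflects only how far these libraries vary.

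MIA LPS replicate 4 was the only library of batch 2. The batch term of the fit took up the values of this library, so every fold change rested on 19 batch 1 libraries, with 3 in MIA LPS. Its values are given apart. It still entered the filter on low counts and the scaling. Without it 15141 genes were tested. In CON offspring 3279 of these were then higher and 3306 lower after LPS, against 3439 and 3141 with it. A further MIA saline library that the submitters titled excluded was left out. Total counts were 9.85 to 19.0 M reads in the batch 1 libraries of the fit and 11.4 M reads in the batch 2 library. The batch 2 library stood apart in the number of genes with a count, at 12285 against 18035 to 19612 in those batch 1 libraries. Within batch 1, MIA LPS replicate 2 stood apart, with the lowest value of its group for all 10 genes. Its summed astrocyte markers were 218 CPM (counts scaled to a common library size) and its oligodendrocyte markers 81.8 CPM, the highest of the 3 MIA LPS libraries. The astrocyte sum lay within the saline libraries, at 165 to 253 CPM in MIA and 171 to 264 CPM in CON offspring. The oligodendrocyte sum lay above theirs, at 28.8 to 61.6 and 24.4 to 40.8 CPM. Both sums lay above those of the CON LPS libraries, at 105 to 147 CPM for astrocyte and 23.5 to 42.1 CPM for oligodendrocyte markers. The part of such cells in the low values of replicate 2 was not tested. The sum of 10 microglia markers was 4425 to 6889 CPM in MIA LPS and 14270 to 17550 CPM in MIA saline libraries, and 5052 to 6439 CPM in CON LPS and 12950 to 17741 CPM in CON saline libraries. All 10 of these markers were detected in every group, and 9 of them were lower after LPS in both offspring groups by the test below.

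As background, TNF is made as a membrane protein, and the protease ADAM17 sheds it as a soluble trimer. Its receptor TNFR1 (gene Tnfrsf1a) recruits the kinase RIPK1 and, through TRAF2, ubiquitin ligases of the cIAP family, on whose ubiquitin chains the kinases that activate NF-kB assemble. A20 (gene Tnfaip3) is an NF-kB target that edits these chains and limits the signal. When caspase-8 is blocked, RIPK1 can instead engage RIPK3, whose target MLKL ruptures the cell membrane. TNFR2 (gene Tnfrsf1b) lacks a death domain, binds TRAF2 directly and is prominent on microglia and other immune cells.

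NF-kB acts through short DNA motifs, and the promoters of the 10 genes were searched for its consensus on both strands. RefSeq gave 12 windows for the 10 genes (build GRCm38.p6), each from 250 bases before to 50 after a start site. The consensus lay in windows of 2 genes, Tnfaip2 and Tnfaip3. Over all genes with a window, 2581 of 27025 (9.55%) held it. The 250 bases before the RefSeq start site of these genes are shown because they hold every match found, in capitals. The first is chr12:111442411-111442660 (plus strand), with 1 match at -24 to -15 from the start site that reads as the consensus on the opposite strand. The second is chr10:19015411-19015660 (minus strand), the more upstream of 2 RefSeq starts. Its match at -125 to -116 reads as the consensus on both strands, and its match at -12 to -3 does so on the opposite strand. The GENCODE M21 annotation, used for the gene coordinates below, starts Tnfaip2 at chr12:111442469 and Tnfaip3 at chr10:19015657. Both starts lie within the stretches shown and every match lies after them, so the positions hold only for the RefSeq starts.
Tnfaip2: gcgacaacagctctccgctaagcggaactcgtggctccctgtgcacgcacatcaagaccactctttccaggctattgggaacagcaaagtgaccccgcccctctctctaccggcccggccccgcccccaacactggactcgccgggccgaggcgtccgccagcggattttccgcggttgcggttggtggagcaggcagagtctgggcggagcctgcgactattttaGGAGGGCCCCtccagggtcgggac
Tnfaip3: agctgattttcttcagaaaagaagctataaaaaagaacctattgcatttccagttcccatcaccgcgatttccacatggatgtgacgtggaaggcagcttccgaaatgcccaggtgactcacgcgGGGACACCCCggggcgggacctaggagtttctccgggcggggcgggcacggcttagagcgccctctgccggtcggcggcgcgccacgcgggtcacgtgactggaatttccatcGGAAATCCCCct
The windows of Tnf, Traf1, Birc3 and Ripk3 had no match, which says only that these letters are not in these windows. A match is a description of the letters.

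Tnf and several genes of its signalling complex were higher after adult LPS in both MIA and CON offspring. In MIA offspring, 7 of the 10 genes were higher after LPS, 0 were lower and 3 were not called by edgeR's quasi-likelihood test (Benjamini-Hochberg adjusted p under 0.05), against 20.8% higher and 18.3% lower among all genes tested. In CON offspring, 8 were higher, 0 lower and 2 not called, against 23.3% higher and 21.3% lower among all genes. At an unadjusted p under 0.05, edgeR gave 9 higher in MIA and 8 higher in CON offspring, where 46.8% and 51.0% of all genes passed in either direction, and DESeq2 and limma-voom also called 0 lower. The median log2 fold change of the 10 was 1.12 in MIA and 1.17 in CON offspring, and over all genes it was 0.02 and -0.00. The LPS and saline libraries did not overlap for the same 6 genes in each, Tnf, Traf1, Birc3, Tnfaip2, Tnfaip3 and Ripk3, where 18.5% of all genes were higher without overlap in MIA and 15.1% in CON offspring. In sorted bulk samples, a change in the number of cells that hold a transcript and a change in its amount per cell cannot be told apart.

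**Figure D1:**
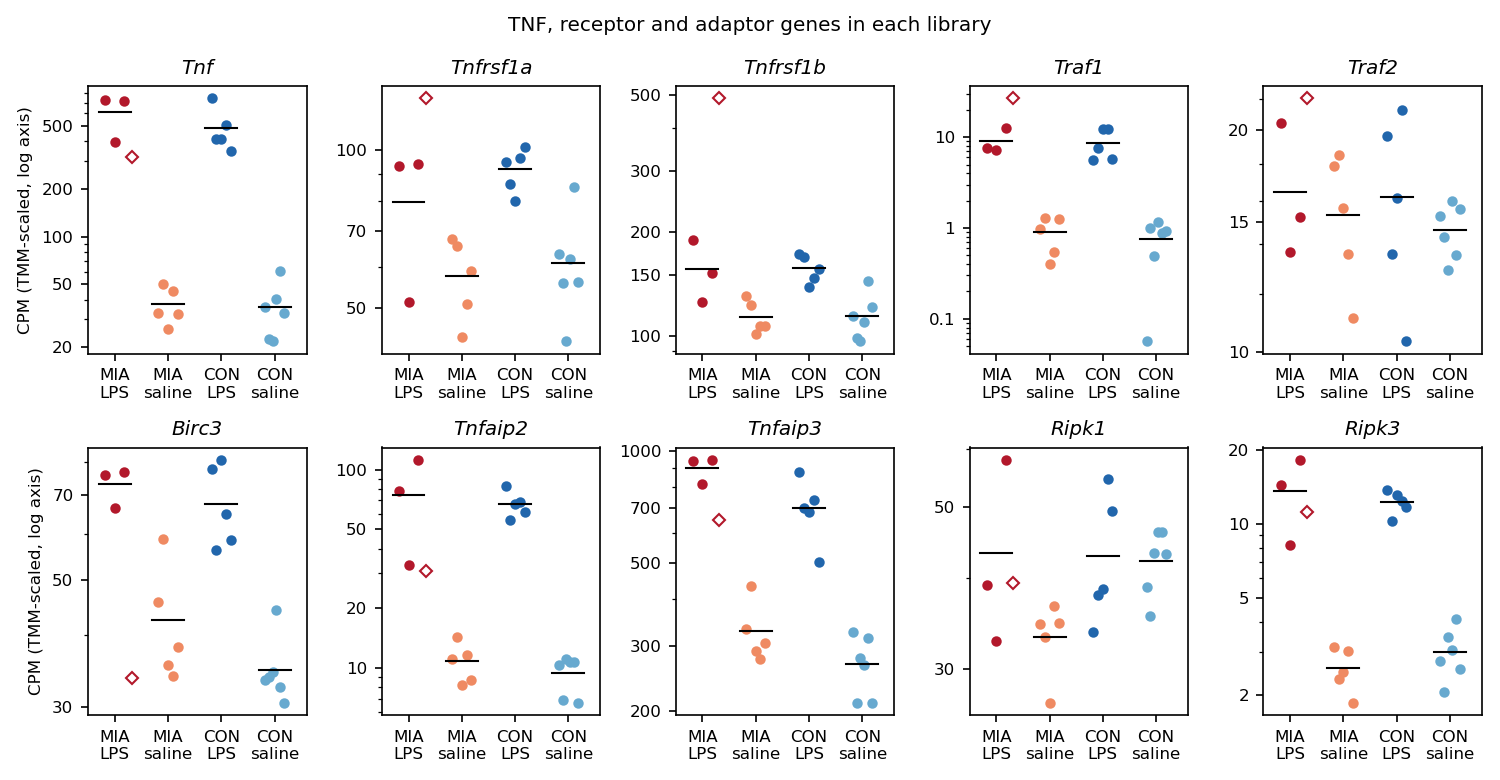
CPM of each gene on a log axis, scaled by the trimmed mean of M-values (TMM), for each library of the MIA LPS, MIA saline, CON LPS and CON saline groups. Filled points are batch 1 libraries, lines are their means and the open diamond is the batch 2 library. Within MIA and within CON offspring, batch 1 LPS and saline libraries are apart for Tnf, Traf1, Tnfaip2, Tnfaip3, Ripk3 and Birc3 and overlap for Traf2 and Ripk1, and the batch 2 library lies within the saline range for Birc3.

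Tnf (ENSMUSG00000024401.14, chr17:35199381-35202007, minus strand, GENCODE M21 on GRCm38) showed the largest fold change of the 10 genes. Batch 1 MIA LPS libraries had 728, 395 and 719 CPM, against 32.9, 50.2, 26.3, 45.1 and 32.5 CPM in MIA saline libraries. CON LPS libraries had 747, 411, 415, 503 and 344 CPM, against a lowest of 21.8, a median of 34.5 and a highest of 61.0 CPM in CON saline libraries. Every LPS library lay well above every saline library in both offspring groups. The log2 fold change was 4.04 ± 0.32 (SE) in MIA offspring (edgeR adjusted p = 2.74e-09) and 3.76 ± 0.28 in CON offspring (edgeR adjusted p = 5.87e-10), a 16.4-fold and a 13.5-fold rise. The batch 2 MIA LPS library had 317 CPM, below the 395 CPM of the lowest batch 1 library of its group.

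The receptors moved far less than their ligand. Tnfrsf1a (ENSMUSG00000030341.17, chr6:125349362-125362484, plus strand) had 93.4, 51.4 and 94.1 CPM in MIA LPS libraries, against 67.8, 65.8, 44.1, 50.9 and 58.8 CPM in MIA saline libraries. MIA LPS replicate 2, at 51.4 CPM, lay among the saline libraries, and the change was not called, at 0.47 ± 0.19 log2 (edgeR adjusted p = 0.0527). Without that library it was called, at 0.71 (edgeR adjusted p = 0.00249), and without MIA LPS replicate 3 it was 0.33 (edgeR adjusted p = 0.258). With each library left out in turn it was called in 6 of 20 fits. In CON offspring Tnfrsf1a rose, with 95.1, 86.4, 79.9, 96.7 and 101 CPM in LPS libraries, against 43.2 to 85.0 CPM in saline libraries (0.59 ± 0.16 log2, edgeR adjusted p = 0.00360). One CON saline library, replicate 5 at 85.0 CPM, reached into the range of the CON LPS libraries.

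Tnfrsf1b (ENSMUSG00000028599.10, chr4:145213463-145246870, minus strand) had 190, 126 and 153 CPM in MIA LPS libraries, against 130, 122, 101, 107 and 106 CPM in MIA saline libraries. CON LPS libraries had 173, 169, 139, 148 and 156 CPM, against 96.3 to 144 CPM in CON saline libraries. The groups overlapped in both, yet Tnfrsf1b was called higher, at 0.46 ± 0.15 log2 in MIA offspring (edgeR adjusted p = 0.0150) and 0.46 ± 0.12 in CON offspring (edgeR adjusted p = 0.00344). Without MIA LPS replicate 1 the MIA change was 0.29 and not called (edgeR adjusted p = 0.157). With no batch term, which lets the batch 2 library in, it was 1.08 (edgeR adjusted p = 0.00195), and the CON change was no longer called (edgeR adjusted p = 0.135). The batch 2 MIA LPS library stood far above the others, at 490 CPM. Its summed neutrophil markers were 451 CPM, against 100 to 202 CPM in the batch 1 MIA LPS libraries, and its monocyte markers 125 CPM, against 36.1 to 61.0 CPM. Its microglia markers were higher too, at 7690 CPM against 4425 to 6889 CPM. So were its border-associated macrophage markers, at 39.4 CPM against 11.2 to 35.1 CPM. Its astrocyte markers were lower, at 77.2 CPM against 128 to 218 CPM. The part of any of these cells in its Tnfrsf1b value was not tested.

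Among the adaptors, Traf1 rose and Traf2 was not called. Traf1 (ENSMUSG00000026875.14, chr2:34941750-34961772, minus strand) encodes an adaptor that lacks the RING finger of other TRAF proteins and pairs with TRAF2. It had 7.52, 7.16 and 12.7 CPM in MIA LPS libraries, against 0.964, 1.29, 0.405, 0.551 and 1.27 CPM in MIA saline libraries. CON LPS libraries had 5.63, 7.52, 12.4, 12.2 and 5.69 CPM, against a lowest of 0.0565, a median of 0.902 and a highest of 1.15 CPM in CON saline libraries. The lowest LPS library was above the highest saline library several times over. The log2 fold change was 3.35 ± 0.44 in MIA offspring (edgeR adjusted p = 1.01e-06) and 3.54 ± 0.38 in CON offspring (edgeR adjusted p = 4.38e-08). These rest on 1 to 19 reads per saline library and 71 to 192 per batch 1 LPS library.

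Traf2 (ENSMUSG00000026942.13, chr2:25517982-25546940, minus strand) encodes the adaptor that brings cIAP ligases to both TNF receptors. It had 20.5, 13.7 and 15.3 CPM in MIA LPS libraries, against 17.9, 18.5, 15.7, 13.6 and 11.1 CPM in MIA saline libraries, and 19.6, 13.6, 16.2, 21.3 and 10.3 CPM in CON LPS libraries, against 12.9 to 16.0 CPM in CON saline libraries. The groups overlapped throughout. The log2 fold change was 0.10 (95% interval -0.34 to 0.54, edgeR adjusted p = 0.733) in MIA and 0.15 (-0.21 to 0.52, edgeR adjusted p = 0.504) in CON offspring.

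Birc3 (ENSMUSG00000032000.17, chr9:7848699-7873186, minus strand) encodes cIAP2, a ubiquitin ligase of the receptor complex. It had 76.1, 66.6 and 76.8 CPM in MIA LPS libraries, against 45.8, 58.9, 35.6, 33.9 and 38.1 CPM in MIA saline libraries, a log2 fold change of 0.79 ± 0.17 (edgeR adjusted p = 0.000416). CON LPS libraries had 78.0, 56.2, 80.8, 64.9 and 58.5 CPM, against 30.5 to 44.3 CPM in CON saline libraries, a log2 fold change of 0.96 ± 0.14 (edgeR adjusted p = 3.02e-06). The batch 1 groups did not overlap, but the batch 2 MIA LPS library, at 33.7 CPM, lay within the saline range. Its close copy Birc2, encoding cIAP1, was not called, at -0.17 ± 0.18 log2 in MIA (edgeR adjusted p = 0.499) and -0.33 ± 0.15 in CON offspring (edgeR adjusted p = 0.0743), and how reads of the copies were shared is not given in the sources used here.

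The TNF-induced genes Tnfaip2 and Tnfaip3, whose promoter letters are printed above, both rose. Tnfaip2 (ENSMUSG00000021281.15, chr12:111442469-111455018, plus strand) encodes a protein of membrane protrusions and nanotubes. It had 78.0, 33.1 and 112 CPM in MIA LPS libraries, against 11.1, 14.4, 8.17, 11.6 and 8.73 CPM in MIA saline libraries, and 82.5, 56.1, 66.9, 69.1 and 61.5 CPM in CON LPS libraries, against 6.66 to 11.0 CPM in CON saline libraries. MIA LPS replicate 2 and the batch 2 library, at 33.1 and 30.7 CPM, were low among LPS libraries and still above all saline libraries. The log2 fold change was 2.79 ± 0.27 in MIA offspring (edgeR adjusted p = 2.00e-08) and 2.84 ± 0.23 in CON offspring (edgeR adjusted p = 1.06e-09). Counts assigned to the antisense gene Gm40578, which covers 314 bases (6.30%) of the exons of Tnfaip2, were also higher after LPS. The change was 1.80 log2 in MIA and 2.08 log2 in CON offspring (edgeR adjusted p = 0.0394 and 0.00467). Over all libraries both genes had fractional totals, 9870.43 for Tnfaip2 and 223.57 for Gm40578, so their counts may share reads. The part of such reads in either rise was not tested. Whether reads were counted by strand is not given in the sources used here.

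Tnfaip3 (ENSMUSG00000019850.11, chr10:19000910-19015657, minus strand), encoding A20, had 935, 811 and 945 CPM in MIA LPS libraries, against 333, 434, 290, 275 and 305 CPM in MIA saline libraries. CON LPS libraries had 876, 701, 684, 737 and 502 CPM, against 211 to 327 CPM in CON saline libraries. The groups were apart in both. The log2 fold change was 1.45 ± 0.18 in MIA (edgeR adjusted p = 3.32e-07) and 1.39 ± 0.15 in CON offspring (edgeR adjusted p = 3.44e-08).

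The kinases of the complex split in the same way as the adaptors. Ripk3 (ENSMUSG00000022221.14, chr14:55784995-55788865, minus strand), the kinase of necroptosis, had 14.5, 8.25 and 18.3 CPM in MIA LPS libraries, against 3.16, 2.33, 2.50, 3.03 and 1.87 CPM in MIA saline libraries. CON LPS libraries had 13.8, 10.3, 13.1, 12.5 and 11.8 CPM, against 2.07 to 4.08 CPM in CON saline libraries. No LPS library overlapped a saline one. The log2 fold change was 2.41 ± 0.25 in MIA (edgeR adjusted p = 2.11e-08) and 2.02 ± 0.21 in CON offspring (edgeR adjusted p = 1.44e-08).

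Ripk1 (ENSMUSG00000021408.15, chr13:34002363-34037147, plus strand), the kinase that acts as scaffold at TNFR1, had 39.1, 32.8 and 58.1 CPM in MIA LPS libraries, against 34.6, 33.3, 27.0, 36.6 and 34.8 CPM in MIA saline libraries. In CON offspring the range was 33.8 to 54.6 CPM in LPS libraries and 35.6 to 46.3 CPM in saline libraries. It was not called, at 0.38 ± 0.17 log2 (edgeR adjusted p = 0.0798) in MIA and 0.02 ± 0.14 (95% interval -0.28 to 0.33, edgeR adjusted p = 0.926) in CON offspring. The CON value took either sign with the scaling, as given with the processing alternatives. The MIA change was called without MIA LPS replicate 2, at 0.55 (edgeR adjusted p = 0.0131), and was 0.11 without MIA LPS replicate 3 (edgeR adjusted p = 0.675). Exons of Ripk1 overlap the pseudogene Gm17084 on the same strand over 511 bases (6.12%) and Serpinb6a on the other strand over 241 bases (2.89%).

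**Figure D2:**
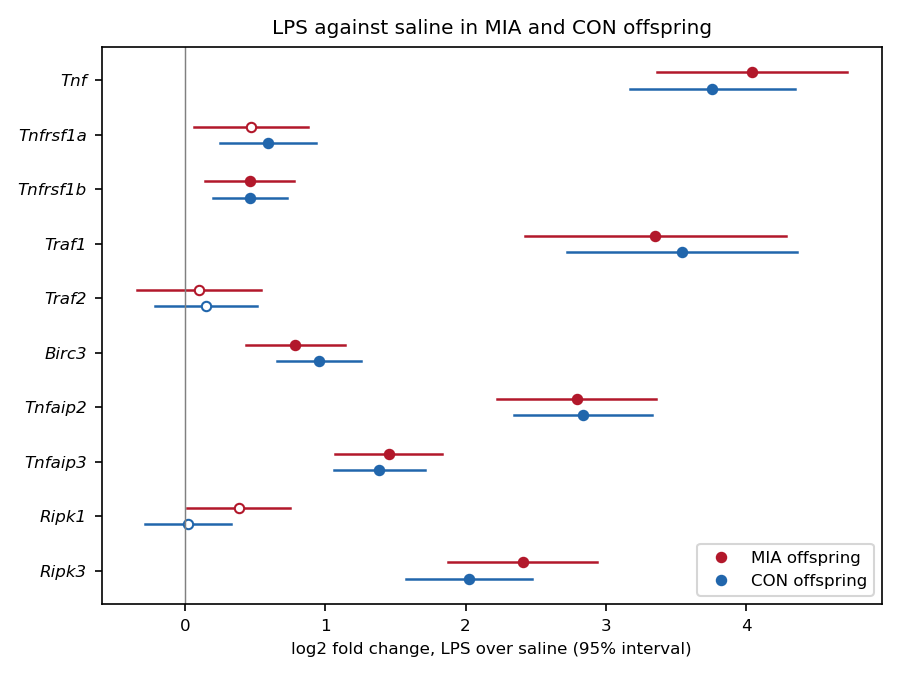
Log2 fold change of LPS over saline with its 95% interval, MIA offspring above CON offspring for each gene. Filled points passed an edgeR adjusted p under 0.05, and open points did not. Tnf, Traf1 and Tnfaip2 lie furthest right, and the intervals of the offspring groups overlap for each gene.

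Most single markers of monocytes and neutrophils were also higher after LPS, while the mean sum of the neutrophil markers was lower in both offspring groups. The sum of 7 monocyte markers was 36.1 to 61.0 CPM in MIA LPS and 2.80 to 5.94 CPM in MIA saline libraries, and 38.8 to 79.9 CPM in CON LPS and 3.80 to 6.41 CPM in CON saline libraries. Of the 7, 6 were higher and 1, Ccr2, was lower after LPS in both offspring groups. Ly6c2 and Chil3 were at 0 in MIA saline. The sum of 10 neutrophil markers, most of it Csf3r after saline, was 100 to 202 CPM in MIA LPS and 172 to 196 CPM in MIA saline libraries, and 114 to 176 CPM in CON LPS and 157 to 233 CPM in CON saline libraries. In MIA offspring 9 of the 10 were higher and 1 lower, and in CON offspring 7 higher and 1 lower. Retnlg and Mmp8 were at 0 in both saline groups, and S100a9, Camp, Ltf and Cxcr2 were at 0 in MIA saline. The part of these cells in the rises of the 10 genes was not tested.

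Scaled per kilobase of exon, the order of levels differed between LPS and saline groups. The length is that of all annotated exon bases of a gene, and the order within a group depends on it. In MIA LPS libraries Tnf came first at 374 ± 116 CPM per kb (SD, n = 3), then Tnfaip3 at 124 ± 10.3, Tnfrsf1b at 40.9 ± 8.51 and Tnfrsf1a at 30.7 ± 9.43, with Tnfaip2 and Birc3 near 15.0 and 14.6. In MIA saline libraries Tnfaip3 came first at 45.3 ± 8.75 CPM per kb (SD, n = 5), then Tnfrsf1b at 29.7 ± 3.21, Tnf at 22.8 ± 6.04 and Tnfrsf1a at 22.2 ± 3.85. Tnf overlapped both receptors in range in MIA saline libraries and lay above them in every MIA LPS library. In CON LPS libraries Tnf was at 295 ± 96.0 CPM per kb (SD, n = 5) and Tnfaip3 at 96.9 ± 18.5, and their ranges did not overlap. In CON saline libraries Tnfaip3 was at 37.0 ± 6.86 CPM per kb (SD, n = 6), Tnfrsf1b at 29.8 ± 4.56, Tnfrsf1a at 23.5 ± 5.32 and Tnf at 21.8 ± 8.77, and each of these overlapped the next in range. Traf1 was last in every group, at 1.03 and 0.101 CPM per kb in MIA LPS and MIA saline libraries and at 0.984 and 0.0851 in CON LPS and CON saline libraries. The gene ranked next to it, Traf2 in both LPS groups and Ripk3 in both saline groups, did not overlap it in range.

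Ratios of partners within a library describe the same shifts free of scaling between libraries. Per kilobase, the Tnf to Tnfaip3 ratio had a median of 3.35 (2.15 to 3.43) in MIA LPS and 0.470 (0.399 to 0.722) in MIA saline libraries, and 3.01 (2.59 to 3.76) in CON LPS and 0.577 (0.347 to 0.855) in CON saline libraries. The Ripk3 to Ripk1 ratio was 1.15 (0.916 to 1.34) in MIA LPS and 0.301 (0.195 to 0.337) in MIA saline libraries, and 0.987 (0.831 to 1.48) in CON LPS and 0.250 (0.212 to 0.321) in CON saline libraries. By this measure the Ripk3 value was about that of Ripk1 after LPS and well below it after saline. The lengths used are all annotated exon bases, 2292 for Ripk3 and 8344 for Ripk1, and not those of the transcripts expressed. Only the shift of a ratio between treatments is free of this choice. The Traf1 to Traf2 ratio was 0.303 (0.213 to 0.481) in MIA LPS and 0.0312 (0.0150 to 0.0658) in MIA saline libraries, and 0.320 (0.166 to 0.441) in CON LPS and 0.0359 (0.00213 to 0.0415) in CON saline libraries. The receptor ratio, Tnfrsf1b to Tnfrsf1a, overlapped across all 4 groups, with medians of 1.38 in MIA LPS, 1.30 in MIA saline, 1.18 in CON LPS and 1.21 in CON saline libraries. In the batch 2 MIA LPS library it was 2.64, outside all of these.

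**Figure D3:**
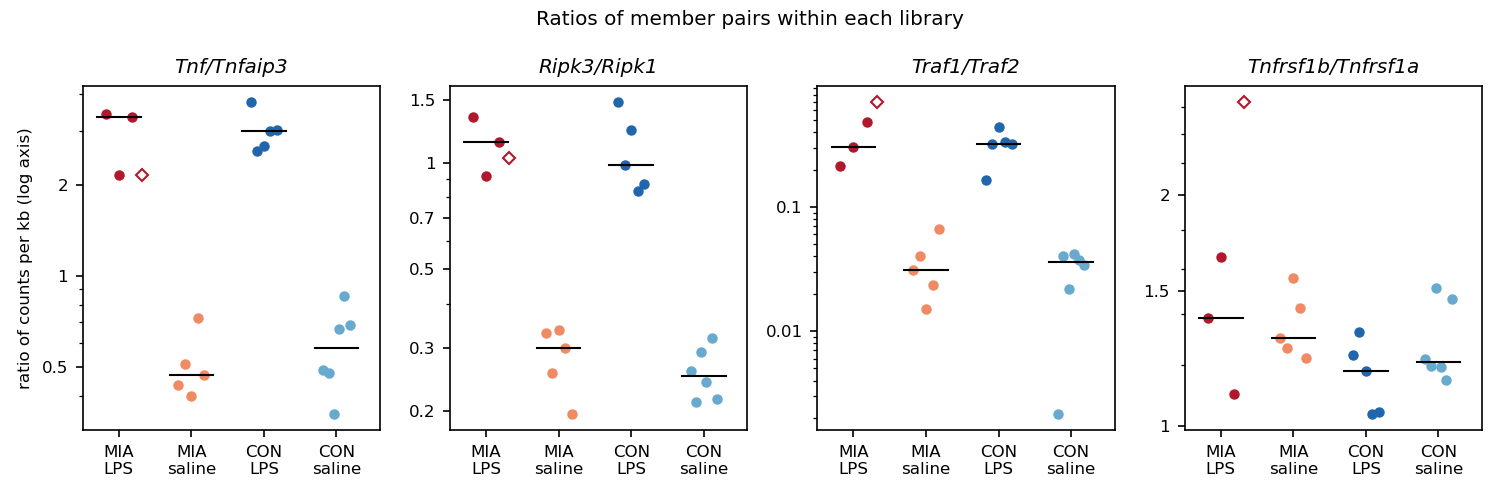
Ratios of counts per kb of exon within each library on a log axis, for 4 pairs of genes in the MIA LPS, MIA saline, CON LPS and CON saline groups. Lines are medians of batch 1 libraries and open diamonds the batch 2 library. The first 3 ratios separate LPS from saline libraries in batch 1, and the receptor ratio does not.

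The study also asked whether maternal immune activation altered these cells, and for the 10 genes no difference passed the test. After LPS, MIA against CON offspring gave 0 of 10 genes called by edgeR (0% of all genes) and 0 at an unadjusted p under 0.05, where 825 of all genes (5.6%) had one. After saline, 0 of 10 were called (0% of all genes) and 1, Ripk1, had an unadjusted p under 0.05, as had 415 of all genes (2.82%). The test of the difference between the MIA and CON LPS responses called 0 of 10 (0% of all genes), with 0 at an unadjusted p under 0.05 against 491 of all genes (3.33%). DESeq2 and limma-voom also called 0 of the 10 in each of these comparisons. DESeq2 called 3 genes higher and 3 lower in all between MIA and CON saline libraries, and limma-voom 0. MIA and CON libraries overlapped for each of the 10 genes, and of all genes 2.68% did not overlap after LPS and 0.4% did not after saline.

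The intervals bound what these libraries could show. For Tnf after LPS, MIA against CON offspring was 0.34 ± 0.30 log2 (95% interval -0.30 to 0.99), and the LPS response differed by 0.28 ± 0.40 (-0.57 to 1.13). Tnfaip3 stood at 0.36 ± 0.18 after LPS (-0.03 to 0.74) and at 0.29 ± 0.15 after saline (-0.03 to 0.61), with edgeR adjusted p of 0.889 and 1.00. Birc3 after saline was at 0.28 ± 0.14 (-0.01 to 0.58, edgeR adjusted p = 1.00). Ripk1 had 34.6, 33.3, 27.0, 36.6 and 34.8 CPM in MIA saline libraries, against a lowest of 35.6, a median of 43.3 and a highest of 46.3 CPM in CON saline libraries, a log2 fold change of -0.35 ± 0.14 (-0.65 to -0.04, edgeR adjusted p = 1.00). Of the MIA saline libraries, 1 reached into the CON saline range. The LPS response of Ripk1 differed by 0.36 ± 0.22 (-0.12 to 0.84) and that of Ripk3 by 0.38 ± 0.33 (-0.31 to 1.08). The widest interval was that of Traf1, whose LPS response differed by -0.19 ± 0.59 (-1.44 to 1.07), and any difference within that interval is compatible with these libraries. These comparisons share their libraries with the LPS comparisons above.

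**Figure D4:**
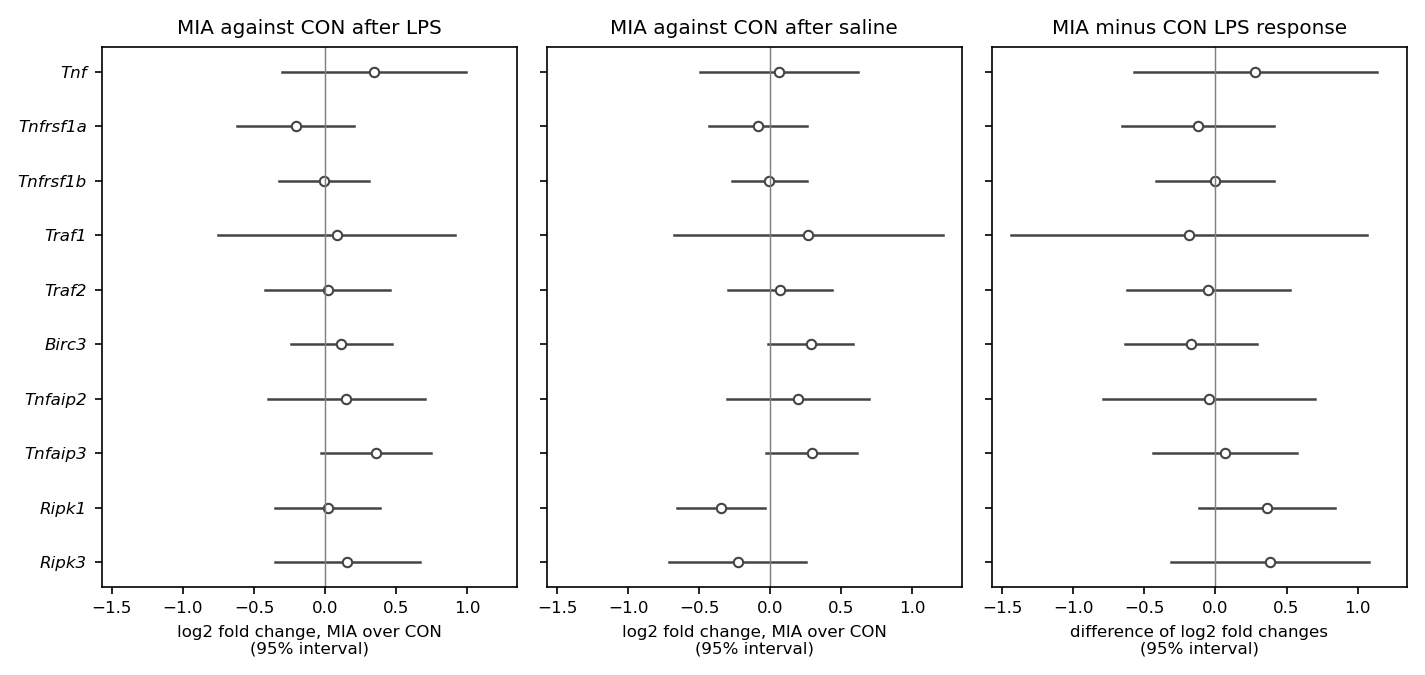
Log2 fold change of MIA over CON offspring after LPS and after saline, and the difference of their LPS responses, each with its 95% interval. All points are open because none passed an edgeR adjusted p under 0.05. Only the interval of Ripk1 after saline lies wholly on one side of 0.

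Of 96 other genes of the pathway, 72 were tested. In MIA offspring 21 were higher and 11 lower after LPS (median log2 fold change 0.18), against 20.8% higher and 18.3% lower among all genes. In CON offspring 24 were higher and 13 lower (median 0.14), against 23.3% higher and 21.3% lower among all genes. The same shares apply to the counts of each list below. Under other settings the count of lower genes in MIA offspring was 5 without MIA LPS replicate 1, 6 without MIA LPS replicate 3, 7 without MIA saline replicate 3 and 7 with no filter on low counts. Between MIA and CON offspring, edgeR, DESeq2 and limma-voom called 0 of the 72 after LPS, after saline and in the difference of responses, where edgeR gave 2, 1 and 3 at an unadjusted p under 0.05.

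Of 17 other ligands, 7 passed the filter on low counts, of which 2 were higher and 1 lower in MIA and 3 higher and 1 lower in CON offspring. Tnfsf9, encoding the 4-1BB ligand, averaged 71.9 ± 30.7 CPM in MIA LPS (SD, n = 3) and 2.60 ± 1.51 CPM in MIA saline libraries (n = 5), and 61.9 ± 20.8 CPM in CON LPS (n = 5) and 3.00 ± 1.14 CPM in CON saline libraries (n = 6). It rose by 4.79 ± 0.42 log2 in MIA (edgeR adjusted p = 3.78e-08) and 4.36 ± 0.36 in CON offspring (edgeR adjusted p = 1.07e-08). Tnfsf13, encoding APRIL, rose by 1.67 ± 0.43 (edgeR adjusted p = 0.00283) and 1.72 ± 0.36 (edgeR adjusted p = 0.000327) in MIA and CON offspring. Tnfsf13b, encoding the B cell factor BAFF, stood at 0.24 ± 0.20 in MIA offspring (edgeR adjusted p = 0.374) and rose by 0.83 ± 0.17 in CON offspring (edgeR adjusted p = 0.000257). The difference between these responses was -0.59 ± 0.27 and was not called (edgeR adjusted p = 1.00).

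Of 26 other receptors, 15 were tested, with 6 higher and 3 lower in MIA and 7 higher and 3 lower in CON offspring. Tnfrsf17, encoding the APRIL and BAFF receptor BCMA, fell, with 0 to 0.434 CPM in MIA LPS and 9.52 to 16.6 CPM in MIA saline libraries, and 0 to 0.240 CPM in CON LPS and 7.23 to 12.9 CPM in CON saline libraries (edgeR adjusted p = 4.57e-09 in MIA and 5.17e-11 in CON offspring). Tnfrsf13b, encoding the related receptor TACI, fell too, at -1.25 ± 0.18 log2 in MIA and -1.28 ± 0.15 in CON offspring (edgeR adjusted p = 5.60e-06 and 1.01e-07). Cd27 was at -0.95 ± 0.37 in MIA (edgeR adjusted p = 0.0422) and -1.54 ± 0.31 in CON offspring (edgeR adjusted p = 0.000196). Relt rose by 2.28 ± 0.31 in MIA and 2.19 ± 0.27 in CON offspring (edgeR adjusted p = 3.00e-06 and 5.00e-07). Tnfrsf12a, encoding the TWEAK receptor, rose by 2.20 ± 0.27 in MIA and 1.91 ± 0.23 in CON offspring (edgeR adjusted p = 5.01e-07 and 2.94e-07). BCMA and TACI are best known from B cells, and lymphocyte markers summed to at most 0.217 CPM in MIA LPS, 0.207 in MIA saline, 0.402 in CON LPS and 0.408 in CON saline libraries.

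All 22 other adaptors, kinases and ubiquitin ligases were tested, with 6 higher and 3 lower in MIA and 6 higher and 4 lower in CON offspring. Among all genes 20.8% were higher and 18.3% lower in MIA, and 23.3% and 21.3% in CON offspring. The genes named here are the largest changes of the list. Mapkapk2, encoding the kinase MK2 that stabilises Tnf mRNA, rose by 1.84 ± 0.16 log2 in MIA and 1.64 ± 0.14 in CON offspring (edgeR adjusted p = 1.08e-09 and 2.85e-10). Tank, a TRAF-binding adaptor, rose by 1.41 ± 0.14 in MIA and 1.42 ± 0.12 in CON offspring (edgeR adjusted p = 1.78e-08 and 5.70e-10). Traf5, a close relative of Traf2, fell, at -0.74 ± 0.23 in MIA and -1.06 ± 0.19 in CON offspring (edgeR adjusted p = 0.0105 and 4.01e-05). Sharpin, of the linear ubiquitin ligase, rose by 0.67 ± 0.19 in MIA and 0.68 ± 0.16 in CON offspring (edgeR adjusted p = 0.00650 and 0.000954). Ikbke was not called in MIA offspring, at 0.72 ± 0.34 (edgeR adjusted p = 0.0981), and was called in CON offspring, at 0.76 ± 0.28 (edgeR adjusted p = 0.0332).

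Among 10 deubiquitinases and partners of A20, all tested, 2 were higher and 1 lower in MIA and 3 higher and 1 lower in CON offspring. The A20-binding genes Tnip1 and Tnip2 rose beside Tnfaip3, by 1.14 ± 0.22 and 1.09 ± 0.17 log2 in MIA (edgeR adjusted p = 0.000140 and 9.56e-06) and by 0.98 ± 0.18 and 0.87 ± 0.14 in CON offspring (edgeR adjusted p = 7.79e-05 and 1.82e-05). With no batch term Tnip1 was at 2.52 in MIA offspring and was not called in CON offspring (edgeR adjusted p = 0.0687). Itch, a ubiquitin ligase that works with A20, fell, at -0.50 ± 0.11 in MIA and -0.54 ± 0.09 in CON offspring (edgeR adjusted p = 0.000816 and 3.09e-05).

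Of 9 genes of the death complex, all tested, 3 were higher and 2 lower in MIA and 3 higher and 3 lower in CON offspring. Zbp1, a nucleic acid sensor that engages RIPK3, averaged 32.9 ± 13.6 CPM in MIA LPS (SD, n = 3) and 0.989 ± 0.560 CPM in MIA saline libraries (n = 5), and 36.3 ± 4.53 CPM in CON LPS (n = 5) and 0.900 ± 0.883 CPM in CON saline libraries (n = 6). It rose by 5.03 ± 0.44 log2 in MIA (edgeR adjusted p = 1.49e-08) and 5.28 ± 0.39 in CON offspring (edgeR adjusted p = 7.14e-10). The RIPK3 target Mlkl, named after its values were seen, was called higher too, at means of 1.21 and 0.180 CPM in MIA LPS and MIA saline libraries and 1.33 and 0.194 CPM in CON LPS and CON saline libraries. These levels are near the floor and below the mean log2 CPM of 1 asked of the other named pathway genes. Casp8, which restrains necroptosis, fell, at -0.67 ± 0.13 in MIA and -0.63 ± 0.10 in CON offspring (edgeR adjusted p = 0.000122 and 1.49e-05). Its partner Cflar rose by 0.56 ± 0.12 in MIA and 0.55 ± 0.10 in CON offspring (edgeR adjusted p = 0.000519 and 5.81e-05). Fadd was at -0.38 ± 0.32 in MIA (edgeR adjusted p = 0.378) and -0.79 ± 0.27 in CON offspring (edgeR adjusted p = 0.0172).

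Of 6 genes for the shedding of TNF and its receptors, all tested, 1 was higher and 1 lower in each offspring group. Rhbdf2, encoding the ADAM17 partner iRhom2, had 34.0 to 50.7 CPM in MIA LPS and 5.81 to 8.15 CPM in MIA saline libraries, and 29.0 to 49.4 CPM in CON LPS and 5.65 to 10.8 CPM in CON saline libraries. It rose by 2.59 ± 0.19 log2 in MIA (edgeR adjusted p = 6.94e-11) and 2.37 ± 0.16 in CON offspring (edgeR adjusted p = 9.60e-12). Its relative Rhbdf1 was at -0.43 ± 0.43 in MIA (edgeR adjusted p = 0.454) and -1.01 ± 0.36 in CON offspring (edgeR adjusted p = 0.0248), and Frmd8, which stabilises iRhoms, at -0.65 ± 0.20 in MIA (edgeR adjusted p = 0.0124) and -0.26 ± 0.17 in CON offspring (edgeR adjusted p = 0.205). Of the other Tnfaip genes 3 of 6 were tested, and Tnfaip8 rose by 0.67 ± 0.24 in MIA and 0.70 ± 0.20 in CON offspring (edgeR adjusted p = 0.0263 and 0.00564). Several of these calls ended in fits with 1 library left out, some of them whichever of several libraries that was. In MIA offspring, that of Traf5 ended without MIA LPS replicate 1 or 3 (-0.63 and -0.59) and that of Frmd8 without MIA LPS replicate 1 (-0.41). That of Tnfaip8 ended without MIA LPS replicate 1 or 3 or MIA saline replicate 3 or 5 (0.40 to 0.64), and it was 1.02 without MIA LPS replicate 2. That of Cd27 ended without any 1 of MIA LPS replicates 1 to 3 or MIA saline replicates 2 to 5 (-1.10 to -0.84). In CON offspring, that of Ikbke ended without CON LPS replicate 1, 3 or 4 or CON saline replicate 1, 2, 5 or 6 (0.59 to 0.74). That of Rhbdf1 ended without CON LPS replicate 2, 3 or 4 (-0.97 to -0.90), and that of Fadd without CON LPS replicate 1 (-0.63). Calls were also gained: Ikbke and Rhbdf1 in MIA offspring stayed uncalled in only 19 of 20 such fits. Their lowest edgeR adjusted p was 0.0386 and 0.0376.

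**Figure D5:**
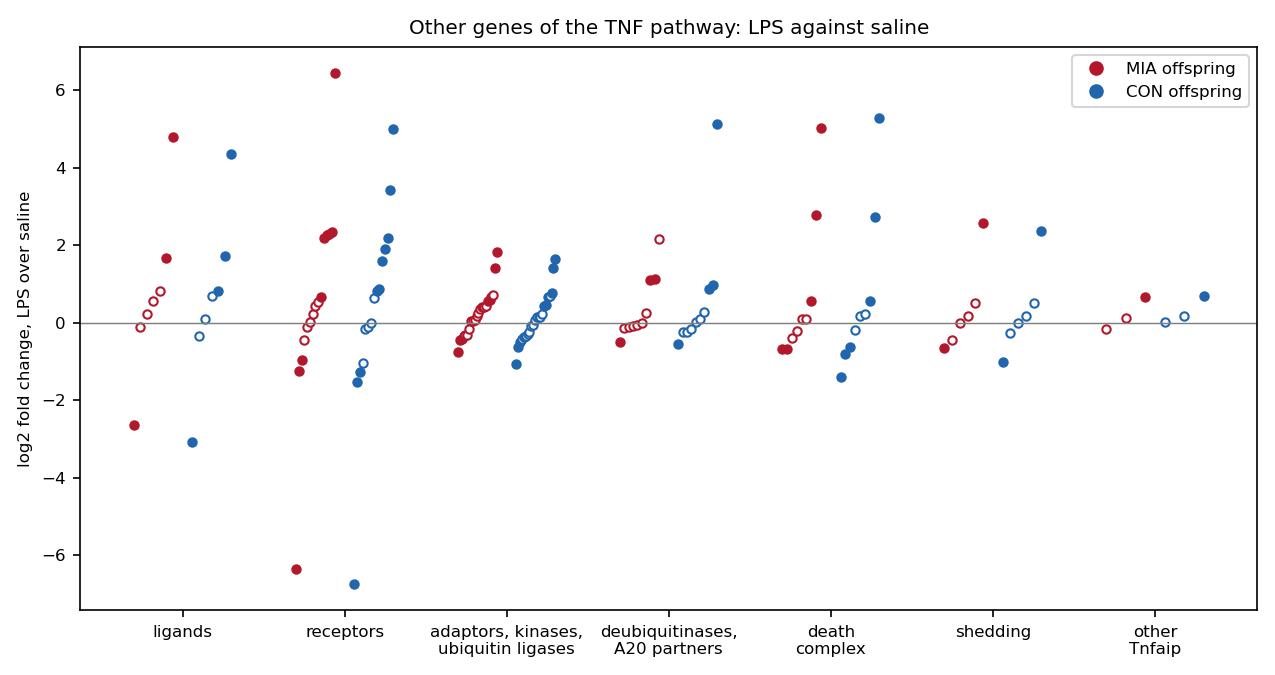
Log2 fold change of LPS over saline for the 72 tested genes of 7 lists, MIA offspring left of CON offspring in each list. Filled points passed an edgeR adjusted p under 0.05. Rises and falls occur in each list but that of the other Tnfaip genes, where only Tnfaip8 is filled.

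Over the 19 batch 1 libraries, the genes whose log2 CPM was most like that of Tnf among 7361 genes were Fth1 (Pearson r = 0.992), Cd14 (0.992), App (0.990), Osm (0.987) and Plin2 (0.986). LPS and saline libraries form separate clusters, so this order largely restates the treatment. After the group mean was taken from each library, the most alike were Ftl1 (r = 0.909), Mapk3 (0.893), D10Jhu81e (0.890), Mrpl28 (0.887) and Ier3 (0.886). Of the other 9 genes described here, Tnfrsf1b and Tnfrsf1a followed Tnf most closely within groups (r = 0.72 and 0.71). They ranked 304 and 311 among the 7361 genes, so many other genes followed Tnf more closely. Next of the 9 were Tnfaip2 and Tnfaip3 (both 0.64) and Ripk3 (0.56), with Traf1 last (0.12). Among batch 1 MIA LPS libraries, replicate 2 was lowest for Tnf and each of the other 9 genes described here. The part of that library in these correlations was not tested. The libraries share depth and composition, and no test is attached.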

How the data were processed

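The deposited table holds the authors' expected counts per gene for 21 libraries, not normalized. The submitters' processing notes name STAR, RSEM and DESeq2. Neither versions nor the genome build nor strand use were found in the sources. All counts were rounded, since 6.27% were fractional. Symbols came from GENCODE M21 (GRCm38), which matched 55227 identifiers with the version removed, while 260 had no match. The protocol mentions no molecular identifiers, so PCR copies count as reads.

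Counts were tested with edgeR 4.0.16 (R 4.3.3; quasi-likelihood, robust, TMM, 1 mean per group plus batch) in 20 libraries, with 15 residual degrees of freedom, after filterByExpr (minimum count 10, minimum total 15), which left 14741 genes. P-values were adjusted over all of them. Group means, ranges and ratios use batch 1 libraries. The SE is the log2 fold change over the square root of F. The genes and lists were chosen with earlier results of these data known. Named pathway genes were, per list and LPS comparison, up to 4 called genes with the largest absolute change at a mean log2 CPM of at least 1. A gene named by this rule and a cell type marker are not reported here. Alternatives were other scalings, no count filter, DESeq2 1.42.0, limma-voom (limma 3.58.1), no batch term, the excluded library kept, replicate and ID number blocks, and each library left out. The procedure was tested on simulated data.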

Additional observations from a re-analysis of the deposited data

Results flagged for a closer look

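Birc3 in CON saline replicate 4 was at 44.3 CPM, far from the next highest library of its group at 34.5 CPM. Over the 40 combinations of gene and group examined, chance flags about 1 in 20.

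The library titled excluded, a MIA saline library outside the comparisons, held 16.9 CPM of Traf2 and 4.60 CPM of Ripk3, above the highest CON saline library at 16.0 and 4.08 CPM. The MIA saline libraries of the comparisons reached 18.5 CPM of Traf2, so its value lay within its own group's range, and 3.16 CPM of Ripk3.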

How the results depend on the processing

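The count of the 10 genes called stayed within 1.5 times under every alternative run: 6 to 9 higher in MIA offspring and 7 to 8 in CON offspring, with 0 called between MIA and CON offspring. Leaving out 1 library gave 6 to 9 in MIA and 8 to 8 in CON offspring. Over the settings that do not leave out a single library, 411 of the values of the 10 genes kept direction and call, 32 changed sign, 6 gained a call and 1 lost it. Tnfrsf1a in MIA offspring was called under limma-voom (0.65, adjusted p = 0.00364), no batch term (0.66, 0.0122), the replicate block (0.54, 0.0283) and the ID number block (0.41, 0.0446), and Ripk1 under limma-voom (0.48, 0.0318) and the replicate block (0.48, 0.0250). Tnfrsf1b in CON offspring lost its call with no batch term (0.46, 0.135). Among pairs of libraries from other groups with the same replicate number, 12 of 24 correlated above 0.1 (mean r = 0.08). With no unmatched pairs beside them, this cannot tell whether these numbers pair the libraries. Of 10 pairs with the same ID number and other treatment, 5 correlated above 0.1 (mean r = 0.11), and with that number as a random block (correlation 0.084) 0 of the 10 genes were called between MIA and CON offspring. Lower pathway genes in MIA offspring numbered 7 with no filter on low counts, against 11, and 5 to 12 with 1 library left out. Calls of named pathway genes were lost under 16 combinations of gene and setting, among them Ikbke in CON offspring (RLE, upper quartile, no filter, no batch term), Cd27 in MIA (no filter, limma-voom, both blocks), Tnfaip8 in MIA (no filter, both blocks), Fadd in CON (no batch term, ID number block), and Rhbdf1 and Tnip1 in CON (no batch term).

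Values that changed sign were not called in either setting, except Frmd8 in MIA offspring (called at -0.65; 0.70 with no batch term, adjusted p = 0.207), and their cause was not tested. Fadd in MIA offspring was 0.12 with no batch term. Ripk1 in CON offspring was -0.053 with RLE scaling, -0.053 with DESeq2, -0.065 with upper quartile scaling and -0.0046 with the excluded library kept. Tnfrsf1b, MIA against CON after saline, was 0.00064 with RLE, 0.00034 with DESeq2, 0.0088 with upper quartile, 0.012 with limma-voom, 0.034 with the excluded library and 0.017 with the replicate block. After LPS it was 0.0015 with RLE, 0.0011 with DESeq2, 0.083 with limma-voom and 0.61 with no batch term. Its difference of responses was 0.00083, 0.00073, 0.072 and 0.62 in the same order, and 0.10 with the ID number block. Traf2 was -0.032 after saline with limma-voom and -0.032 after LPS with the replicate block, and its difference 0.094 with limma-voom, 0.067 with no batch term and 0.12 with the ID number block. Tnfaip2 after LPS was -0.078 with no batch term and -0.0049 with the random ID block, and its difference 0.13 with limma-voom. With no batch term Birc3 and Ripk1 after LPS were -0.094 and -0.017, and the differences of Tnfrsf1a, Traf1 and Tnfaip3 were 0.072, 0.38 and -0.036.

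With 1 library left out, signs changed in these ranges. MIA against CON after LPS gave Tnfrsf1a -0.34 to 0.030, Tnfrsf1b -0.18 to 0.13, Traf1 -0.23 to 0.24, Traf2 -0.17 to 0.14, Tnfaip2 -0.28 to 0.50, Ripk1 -0.25 to 0.19 and Ripk3 -0.11 to 0.42. After saline it gave Tnf -0.066 to 0.28, Tnfrsf1a -0.16 to 0.033, Tnfrsf1b -0.056 to 0.071 and Traf2 -0.0079 to 0.16. The difference of responses gave Tnfrsf1a -0.26 to 0.12, Tnfrsf1b -0.17 to 0.14, Traf1 -0.50 to 0.087, Traf2 -0.23 to 0.069, Tnfaip2 -0.47 to 0.31 and Tnfaip3 -0.031 to 0.19. LPS against saline gave Traf2 -0.083 to 0.22 in MIA and Ripk1 -0.082 to 0.094 in CON offspring. With 3 batch 1 libraries in MIA LPS and 1 to 19 reads of Traf1 per saline library, small differences were not detectable.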
